A study of Homo sapiens with 6 samples.

Results

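The 36 genes described here are a named list of genes whose products work in the G2 phase and in mitosis: cyclins, mitotic kinases, kinesins, and genes of the checkpoint, the centromere and cell division. They were listed by name and known role, with earlier results of these data known. All 36 were found among the 26347 genes of the count table. RNA was measured in THP-1, a long-established line of human monocytic leukaemia cells grown in RPMI medium with foetal bovine serum. The 3 control libraries came from cells given a negative control microRNA mimic, and the 3 treated libraries from cells given a miR-125a-5p mimic. A mimic is a synthetic double-stranded RNA that adds a mature microRNA to the cell. RNA was taken 24 h after transfection in both groups. The study's title speaks of macrophages, while the labels name monocytic cells and no differentiation step. The labels do not say whether the 3 libraries of a group came from separate cultures, so the p-values measure the spread between libraries, which may be technical.

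A cell enters mitosis when cyclin B bound to CDK1 becomes active, which the CDC25 phosphatases bring about by removing inhibitory phosphates. Polo and Aurora kinases, motor proteins and kinetochore proteins then build the spindle, and the spindle checkpoint holds the anaphase-promoting complex in check until chromosomes are attached. Transcripts of these genes build up in G2 and mitosis, and the genes are under the control of the DREAM complex, B-MYB and FOXM1. Their promoters often hold elements named CHR (cell cycle genes homology region) and CCAAT box. In bulk RNA, a changed share of cells in G2 and mitosis and a changed amount of RNA per cell cannot be told apart.

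Levels are given as CPM, a gene's count scaled to a common library total with TMM factors. None of the 36 genes passed the test after the miR-125a-5p mimic, and most had slightly higher levels in the treated libraries. The number called was 0 of 36 at an adjusted p under 0.05 (edgeR's quasi-likelihood test, with the Benjamini-Hochberg method applied across 14731 genes), against a background of 0.0272% of all genes. DESeq2 and limma voom also called 0 of the 36. At an unadjusted p under 0.05, CCNB1 and CENPA were higher, 2 of 36 against 2.69% of all genes, and 0 were lower, against 3.22%. The log2 fold change was positive for 28 of the 36 (77.8%, against 50.2% of all genes) and negative for 8. Its median was 0.10, with quartiles of 0.07 and 0.15, beside a median of 0.0011 over all genes. Single genes ran from -0.11 for ANLN to 0.42 for CENPA, and their standard errors from 0.09 to 0.19. All 3 treated libraries lay above all 3 controls for CCNB1, CDK1, CCNA2, AURKA, BUB3 and ECT2. That is 6 of 36 (16.7%), against 5.31% of all genes, and the opposite order was seen for 0 of 36, against 5.90%. Without control library 1 the positive count was 24 and the median 0.06, and without miR-125a-5p library 2 they were 26 and 0.07.

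**Figure D1:**
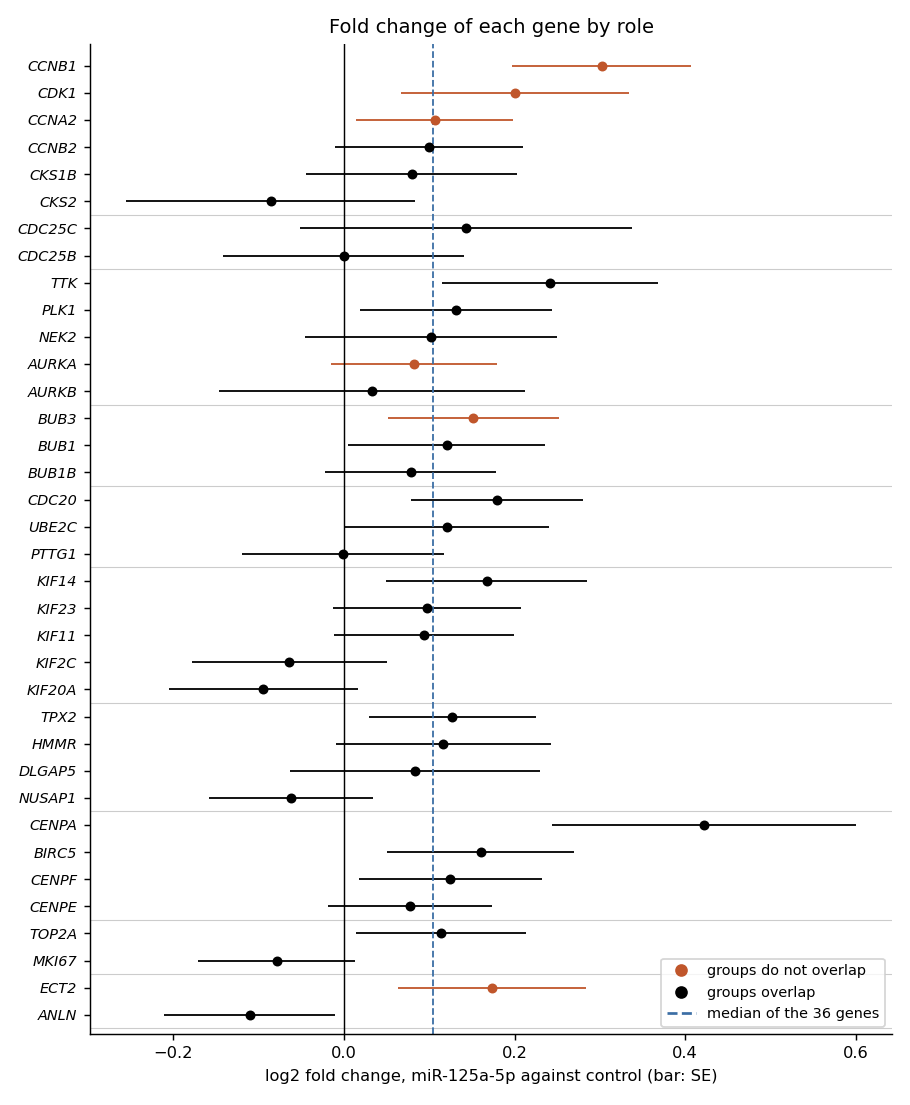
Log2 fold change (treated against control) of each of the 36 genes, grouped by role, with bars of 1 standard error from edgeR. Points in orange are the 6 genes whose groups did not overlap, and the dashed line is the median of 0.10; CENPA and CCNB1 lie farthest to the right and ANLN farthest to the left.

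The 6 libraries held 8256149 to 10257791 counts, and the 36 genes together took 0.528% to 0.636% of each. Raw counts of single members ran from 102 to 16153, so all 36 passed the filter on low counts. The spread between libraries of a group was close to that of other genes: the median within-group SD of log2 CPM was 0.147, beside 0.145 for the 8849 genes in the same range of levels. Control library 1 stood apart from the other libraries over all genes, with a chi-square statistic per gene of 9.90 to 13.4 in its pairs and 4.01 to 7.29 in all others. All 12 monocytic markers were detected, though MPO only at 0.592 to 4.86 CPM. The summed level of the 12 was 2813 to 2983 CPM in control and 2758 to 2897 CPM in treated libraries. Of them, 3 had a positive and 9 a negative fold change. Of other cell types, 4 of 5 T cell markers were in the count table, and none of these had more than 2 counts in a library. At 0 throughout were 4 of 5 erythroid and 2 of 5 epithelial markers. Summed levels stayed at or below 0.599 CPM for erythroid, 1.08 CPM for epithelial and 3.2 CPM for fibroblast markers. The 5 B cell markers summed to 54.0 to 86.5 CPM in control and 45.0 to 62.7 CPM in treated libraries, nearly all of it PAX5. Whether either marker level has a part in the values of the G2 and M phase genes was not tested.

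The sequence of the microRNA is shown because its seed sets which transcripts can pair with it. The mature strand is the RefSeq entry at chr19:51693268-51693291, plus strand, of GRCh38.p14, with the seed (bases 2 to 8, counted from the 5′ end) in capitals.
hsa-miR-125a-5p: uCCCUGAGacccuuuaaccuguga

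A match to this seed in the 3′ untranslated region (UTR) was rare among the 36 genes. The longest annotated 3′ UTR of each gene (GENCODE 29, GRCh38) was searched for CTCAGGGA, the 8-base site, and for its parts CTCAGGG and TCAGGGA of 7 bases and TCAGGG of 6 bases. The 8-base site was found in 0 of 36, CTCAGGG in MKI67, and TCAGGGA in CDC25C. The 6-base site alone was found in ANLN, BUB3, CCNB2 and CENPF, and 30 of 36 (83.3%) held none of these letters, against 62.7% of 12796 tested genes searched in the same way. A site of 7 or 8 bases was present in 2 of 36 (5.56%), against 24.3% of those genes. The searched regions were also shorter, with a median of 689.5 bases against 1366. With the shortest annotated 3′ UTR the count was again 2, but the genes were MKI67 and BIRC5.

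The sites of CDC25C and MKI67 are shown because they are the only ones of 7 bases in the longest regions, with the match in capitals. The CDC25C site is in exon 14 of 14, in 2 of the gene's 4 annotated 3′ UTRs, and the MKI67 site is in exon 14 of 14, in both of its annotated 3′ UTRs.
CDC25C 3′ UTR, match at chr5:138285442-138285448, minus strand, GRCh38: tttgtattggtTCAGGGAactctggcatt
MKI67 3′ UTR, match at chr10:128098466-128098472, minus strand, GRCh38: acccgcggaatCTCAGGGtcccaggctgt
Neither gene differed beyond the spread between libraries. CDC25C, the phosphatase that activates CDK1, had 12.3, 15.0 and 11.3 CPM in control and 12.9, 13.7 and 15.9 CPM in treated libraries. Its treated libraries lay within or just above the control range, and the log2 fold change was 0.14 (SE 0.19, adjusted p = 0.954). MKI67, the Ki-67 protein that coats mitotic chromosomes, had 1490.2, 1784 and 1771 CPM in control and 1432, 1756 and 1589.8 CPM in treated libraries. Its groups overlapped, with the lowest level in treated library 1, and its log2 fold change was -0.08 (SE 0.09, adjusted p = 0.951). These counts do not separate transcripts with the site from those without it.

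What most of the 36 genes share outside the expression values is the make-up of their promoters. RefSeq promoter windows (250 bases before to 50 after the start, GRCh38.p14) were matched for 30 of the 36 genes, with 40 windows in all, and a gene counted once if any window held a motif. AURKA, BUB3, TTK, TPX2, UBE2C and BIRC5 had no entry. The CHR letters TTTGAA, searched on both strands, were found in 20 of 30 (66.7%), against 14.6% of 11451 tested genes and 15.2% of all 35116 windows. The CCAAT letters, also on both strands, were found in 26 of 30 (86.7%), against 42.9% of tested genes and 34.6% of all windows. Both motifs stood in 1 window for 18 of 30 (60%), against 5.999% of tested genes and 5.90% of windows. Matches of the motifs can overlap by a base or more and were then both counted. At least 2 CCAAT matches in a window were found for 19 of 30 (63.3%), against 16.0% of tested genes and 10.7% of windows.

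Promoters of 7 genes are shown, each as the 120 bases before the RefSeq start on the gene's strand (GRCh38.p14), with matches to TTTGAA and CCAAT on either strand in capitals. CCNB1, CENPA, CDC20 and CDK1 are 4 of the genes with the smallest p, PLK1 and CCNB2 hold both motifs close to the start, and ANLN had the most negative fold change.
CCNB1 promoter, chr5:69167030-69167149, plus strand: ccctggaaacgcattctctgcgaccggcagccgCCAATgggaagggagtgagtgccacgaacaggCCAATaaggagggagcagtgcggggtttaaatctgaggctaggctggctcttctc
CENPA promoter, chr2:26785936-26786055, plus strand: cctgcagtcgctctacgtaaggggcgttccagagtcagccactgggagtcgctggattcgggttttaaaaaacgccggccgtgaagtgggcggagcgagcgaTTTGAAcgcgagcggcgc
CDC20 promoter, chr1:43358861-43358980, plus strand: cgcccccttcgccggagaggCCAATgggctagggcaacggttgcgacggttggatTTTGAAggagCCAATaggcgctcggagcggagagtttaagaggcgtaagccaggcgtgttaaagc
CDK1 promoter, chr10:60778358-60778477, plus strand: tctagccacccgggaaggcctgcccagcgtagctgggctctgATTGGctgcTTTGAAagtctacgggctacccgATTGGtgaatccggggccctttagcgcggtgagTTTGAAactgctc
PLK1 promoter, chr16:23678769-23678888, plus strand: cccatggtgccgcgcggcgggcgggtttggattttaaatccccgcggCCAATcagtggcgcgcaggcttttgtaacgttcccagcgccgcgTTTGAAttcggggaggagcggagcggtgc
CCNB2 promoter, chr15:59105026-59105145, plus strand: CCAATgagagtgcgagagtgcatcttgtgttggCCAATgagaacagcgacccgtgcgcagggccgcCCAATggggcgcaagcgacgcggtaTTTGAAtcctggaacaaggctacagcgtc
ANLN promoter, chr7:36389742-36389861, plus strand: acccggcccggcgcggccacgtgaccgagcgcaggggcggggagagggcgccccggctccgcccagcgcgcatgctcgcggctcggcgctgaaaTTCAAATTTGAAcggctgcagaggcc
CCNB1 held CCAAT and no TTTGAA in its whole window, ANLN held TTTGAA and no CCAAT, and CENPA held its CCAAT matches farther upstream than the stretch printed. The CDK1 window is the second of its 2 annotated starts. No match says only that these letters are not in the window, and a match is a description of the sequence, not a bound factor.

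The matches clustered near the start. Of 34 TTTGAA matches, 18 (52.9%) began 10 to 70 bases before it, against 17.1% of the 6238 matches in all promoters. Of 69 CCAAT matches, 41 (59.4%) began 40 to 110 bases before it, against 37.5% of 17602. Both ranges were chosen after the positions were seen, and some windows of 1 gene overlap, so that a match can be counted more than once. Genes with TTTGAA had a median log2 fold change of 0.11 (16 of 20 positive), and the 10 without it had 0.06 (6 positive). Searched from 100 bases before the start, the medians were 0.10 with it and 0.08 without it. All tested genes with TTTGAA in the whole window had a median of 0.0027. These values are given with no test.

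**Figure D2:**
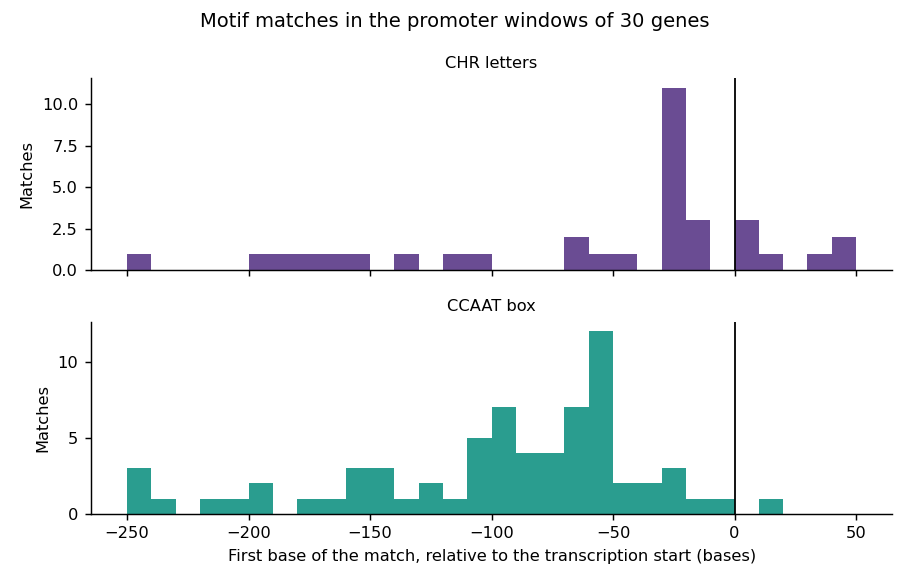
Number of matches to TTTGAA (upper panel) and CCAAT (lower panel) by distance of the first base from the transcription start, in bins of 10 bases over the windows of 30 genes. The tallest bin lies just before the start for TTTGAA and farther upstream for CCAAT. Over all matches, the median was 29 bases before the start for TTTGAA and 87 bases for CCAAT. The CCAAT median lies farther upstream than the tallest CCAAT bin.

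Cyclins, CDK1 and their CKS partners are 6 genes, of which 5 had positive fold changes (median 0.10). In 3 all treated libraries lay above all controls, against 5.31% of all genes. CCNB1, cyclin B1, which drives entry into mitosis, had 66.2, 61.8 and 66.9 CPM in control and 78.2, 78.6 and 83.7 CPM in treated libraries. Every treated library lay above every control, the means were 65.0 ± 2.78 against 80.2 ± 3.07 CPM (SD, n = 3), and the log2 fold change was 0.30 (SE 0.11, adjusted p = 0.621). It had the smallest p of the 36 and ranked 196th of all tested genes. Leaving out each library in turn gave 0.27 to 0.32. CDK1, the kinase that cyclin B activates, had 27.7, 30.9 and 28.8 CPM in control and 32.3, 33.8 and 34.3 CPM in treated libraries, with no overlap. Its log2 fold change was 0.20 (SE 0.13, adjusted p = 0.898). CCNA2, cyclin A2 of S phase and G2, had a narrow spread, 147, 153 and 151 CPM against 156, 163 and 167 CPM, and a log2 fold change of 0.11 (adjusted p = 0.919). CCNB2, cyclin B2, overlapped between the groups (log2 fold change 0.10).

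The CKS proteins are small subunits that bind cyclin-dependent kinases, and both of their transcripts were highest in control library 1. CKS1B had 106, 80.5 and 73.9 CPM in control and 96.9, 81.1 and 97.6 CPM in treated libraries. CKS2 had 31.9, 20.2 and 22.9 CPM in control and 26.1, 21.7 and 23.1 CPM in treated libraries. Their log2 fold changes of 0.08 and -0.09 became 0.25 and 0.13 without control library 1. CKS1B, CKS2 and PTTG1 have near-identical copies elsewhere in the genome, and the handling of reads that match several places is not given in the sources used here, so their counts are uncertain. CDC25B, the phosphatase that starts CDK1 activation, had 25.8, 28.2 and 28.4 CPM in control and 26.3, 29.1 and 26.8 CPM in treated libraries, means of 27.5 ± 1.43 against 27.4 ± 1.5 CPM. Its log2 fold change was -0.00045, and the sign changed between processing settings.

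**Figure D3:**
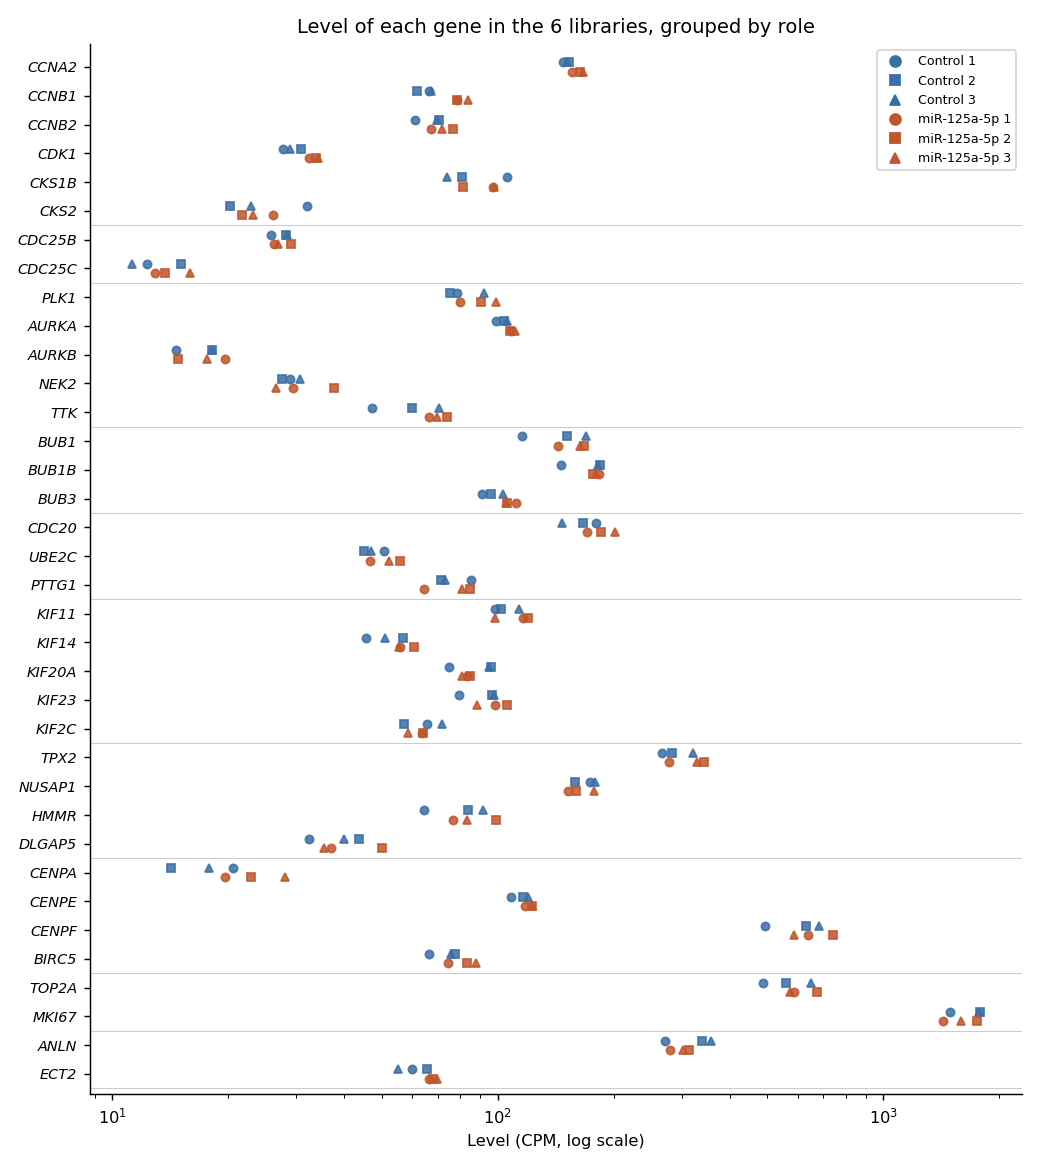
CPM of each of the 36 genes in each of the 6 libraries on a log axis, grouped by role, with control in blue and miR-125a-5p in orange. CCNB1, CDK1, CCNA2, AURKA, BUB3 and ECT2 have their 3 treated points to the right of their 3 control points, and for the other 30 genes the groups overlap.

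All 5 mitotic kinases had positive fold changes, with a median of 0.10, and 0 were called. TTK, the MPS1 kinase that starts the spindle checkpoint signal, had 47.1, 60.0 and 70.3 CPM in control and 66.4, 73.7 and 69.3 CPM in treated libraries. Control library 3 lay above 2 of the treated libraries, and control library 1 was far below the rest. The log2 fold change was 0.24 (SE 0.13, adjusted p = 0.857), and it was 0.10 without control library 1. AURKA, the Aurora kinase of the spindle poles, did not overlap, with 98.7, 104 and 106 CPM against 108, 107 and 111 CPM, but the distance was small (log2 fold change 0.08, SE 0.10). PLK1, a polo kinase needed at many steps of mitosis, had 78.5, 75.2 and 92.1 CPM in control and 79.98, 90.4 and 98.8 CPM in treated libraries (log2 fold change 0.13). Its fold change was 0.054 without treated library 3 and 0.22 without control library 3. NEK2, a kinase of centrosome separation, was highest in treated library 2, with 28.8, 27.6 and 30.7 CPM against 29.4, 37.5 and 26.6 CPM, and its fold change was -0.056 without that library. AURKB, the kinase of the passenger complex, lay at 17.0 ± 2.02 against 17.3 ± 2.43 CPM (log2 fold change 0.03).

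The 3 genes of the spindle checkpoint all had positive fold changes, with a median of 0.12. BUB3, which brings BUB1 and BUBR1 to kinetochores, had 91.0, 95.9 and 103 CPM in control and 111, 106 and 105 CPM in treated libraries. The groups did not overlap, and the log2 fold change was 0.15 (SE 0.10, adjusted p = 0.896). BUB1, a checkpoint kinase, had 116, 152 and 169 CPM in control and 143, 168 and 164 CPM in treated libraries. BUB1B, which encodes BUBR1, had 146, 185 and 182 CPM in control and 184, 177 and 179.8 CPM in treated libraries. In both, control library 1 was lowest and the other 2 controls lay among the treated libraries or above them. Without it the fold changes of BUB1 and BUB1B were -0.024 and -0.028, in place of 0.12 and 0.08.

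Of the anaphase-promoting complex and its substrate securin, 2 of 3 genes had positive fold changes. CDC20, the activator that the checkpoint holds back, had 180.1, 166 and 146 CPM in control and 171, 186 and 202 CPM in treated libraries. Control library 1 lay above treated library 1, so the groups overlapped, and the log2 fold change was 0.18 (SE 0.10, adjusted p = 0.864). It was 1 of the 4 genes with their lowest value in control library 3, and without that library its fold change was 0.10. UBE2C, the ubiquitin-conjugating enzyme of the complex, stood at 47.4 ± 2.93 against 51.6 ± 4.66 CPM (log2 fold change 0.12). PTTG1, securin, which restrains separase, had 85.5, 71.4 and 73.0 CPM in control and 64.2, 84.7 and 80.8 CPM in treated libraries. Its 2 means were both 76.6 CPM.

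Among the 5 kinesins, 3 fold changes were positive and 2 negative, with a median of 0.09. KIF14, a kinesin of cytokinesis, had 45.5, 56.7 and 50.9 CPM in control and 55.8, 60.6 and 55.3 CPM in treated libraries. Control library 2 lay above 2 treated libraries, and the log2 fold change was 0.17 (SE 0.12, adjusted p = 0.898). KIF20A, which acts at the central spindle, had 74.8, 96.1 and 94.9 CPM in control and 83.3, 84.8 and 80.6 CPM in treated libraries. All treated libraries lay inside the control range, and the log2 fold change was -0.09 (SE 0.11, adjusted p = 0.951). KIF11, the Eg5 motor that pushes spindle poles apart, and KIF23, of the centralspindlin complex, had log2 fold changes of 0.09 and 0.10. That of KIF11 was 0.039 without treated library 2, and that of KIF23 was 0.00048 without control library 1. KIF2C, a microtubule depolymerase at centromeres, had a log2 fold change of -0.06.

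Spindle assembly factors had 3 positive and 1 negative fold change. TPX2, which binds and activates Aurora A on spindle microtubules, had 267, 283 and 321 CPM in control and 279, 342 and 329 CPM in treated libraries. Treated library 1 lay below control libraries 2 and 3, and the log2 fold change was 0.13 (SE 0.10, adjusted p = 0.915). HMMR, a microtubule-binding partner of TPX2, and DLGAP5, a spindle-stabilising protein, were highest in treated library 2 and lowest in control library 1, at log2 fold changes of 0.12 and 0.08. NUSAP1, which bundles spindle microtubules, stood at 170.4 ± 10.6 against 163 ± 12.8 CPM (log2 fold change -0.06).

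All 4 genes of centromere and passenger proteins had positive fold changes, with the highest median of the groups of 3 or more genes (0.14). CENPA, the histone H3 variant that marks centromeres, had 20.5, 14.2 and 17.8 CPM in control and 19.6, 22.9 and 28.0 CPM in treated libraries. Control library 1 lay above treated library 1, so the groups overlapped. Its log2 fold change of 0.42 was the highest of the 36, with one of the largest standard errors (0.18, adjusted p = 0.787). Leaving out each library in turn gave 0.28 to 0.55. BIRC5, survivin of the passenger complex, had 66.4, 77.7 and 75.7 CPM in control and 74.5, 83.0 and 87.9 CPM in treated libraries. Treated library 1 lay inside the control range, and the log2 fold change was 0.16 (SE 0.11, adjusted p = 0.898). CENPF, a large kinetochore protein of late G2, ran widely within both groups, with 494, 630.5 and 681 CPM against 639.6, 742 and 585 CPM, and its fold change of 0.12 became -0.0029 without control library 1. CENPE, a kinetochore motor, had a log2 fold change of 0.08.

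TOP2A, the topoisomerase that untangles sister chromatids, had 488, 561 and 649 CPM in control and 586, 675 and 574 CPM in treated libraries. The spread within each group was wider than the distance between groups, and the log2 fold change was 0.11 (SE 0.10, adjusted p = 0.919). It was 0.014 without control library 1 and 0.035 without treated library 2. In cytokinesis the 2 genes had opposite signs. ECT2, the exchange factor that activates RhoA at the cleavage furrow, had 60.1, 65.5 and 55.2 CPM in control and 66.4, 67.9 and 69.5 CPM in treated libraries. Its groups did not overlap, and the log2 fold change was 0.17 (SE 0.11, adjusted p = 0.884). ANLN, anillin, a scaffold of the contractile ring, had 272, 338 and 357 CPM in control and 279, 314 and 302 CPM in treated libraries. Its groups overlapped, and its log2 fold change was -0.11 (SE 0.10, adjusted p = 0.927), or -0.22 without control library 1.

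Levels between the genes were compared in the control libraries as CPM per kilobase of exon (GENCODE 29). MKI67 was highest at 132.7, followed by TOP2A at 98.3, CDC20 at 89.8 and TPX2 at 80.5. CDC25C was lowest at 5.003, with CDC25B at 6.92 and KIF14 at 7.02 next above it. CCNB1 stood at 29.96 and its kinase partner CDK1 at 14.3. The median of the 36 was 26.3, against 6.73 over all tested genes.

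Summarised by library, the 36 genes did not separate the groups. For each gene the log2 CPM in a library was taken relative to its mean over the 6 libraries. The median of these values over the 36 genes was -0.13, -0.02 and 0.03 in control libraries 1 to 3 and -0.01, 0.11 and 0.05 in treated libraries 1 to 3. Treated library 1 lay below control library 3, so the medians overlapped. Over all tested genes the medians were 0.003 to 0.008. Control library 1 held the lowest value for 22 of the 36 genes, and treated library 2 the highest for 14 and the lowest for 0. The sign of the fold change was the same in all 6 fits that left out 1 library for 24 of the 36 genes, of which 20 were positive. Only for BUB3, CCNA2, CCNB1 and CDK1 did it also stay within 1.5 times its value in all 6 fits, and for the other 20 of the 24 it moved by more.

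**Figure D4:**
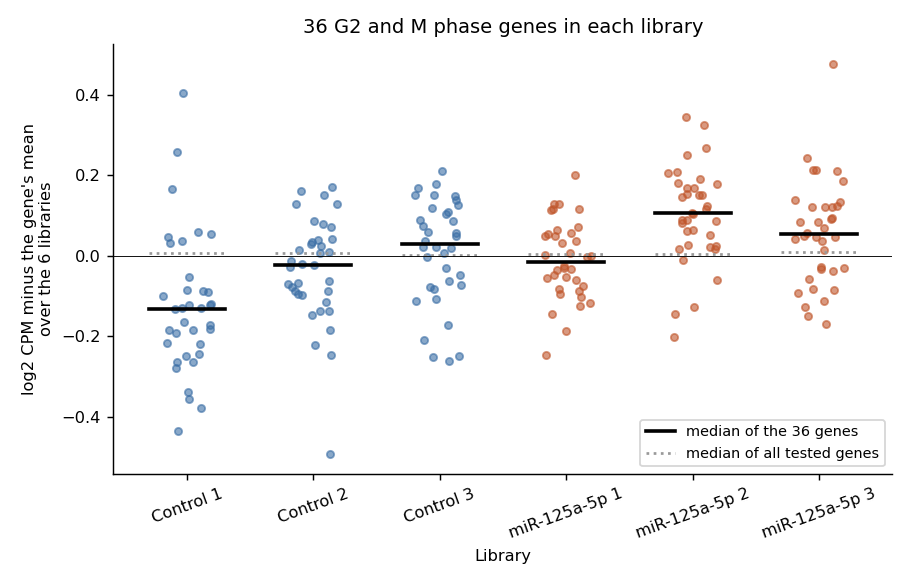
Log2 CPM of each of the 36 genes minus its mean over the 6 libraries, by library, with the median of the 36 genes (solid line) and of all tested genes (dotted line). The solid line is lowest in control library 1 (-0.13) and highest in treated library 2 (0.11), and treated library 1 (-0.01) lies between control libraries 2 and 3.

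In control library 1 the values of the 36 genes differed with the length of the transcripts. Across the 36 genes, the value relative to the mean had a correlation with log2 exon length of r = -0.62 in control library 1, 0.46 and 0.43 in the other controls, and -0.07, 0.35 and -0.34 in treated libraries 1 to 3. Each gene's 6 values sum to 0, so these correlations depend on each other, and they are given as a description. Over 14289 tested genes with a length they ran from -0.03 to 0.04. In control library 1 the 7 genes under 2000 bases had a median of 0.05, and the 6 genes of at least 5000 bases had -0.20.

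**Figure D5:**
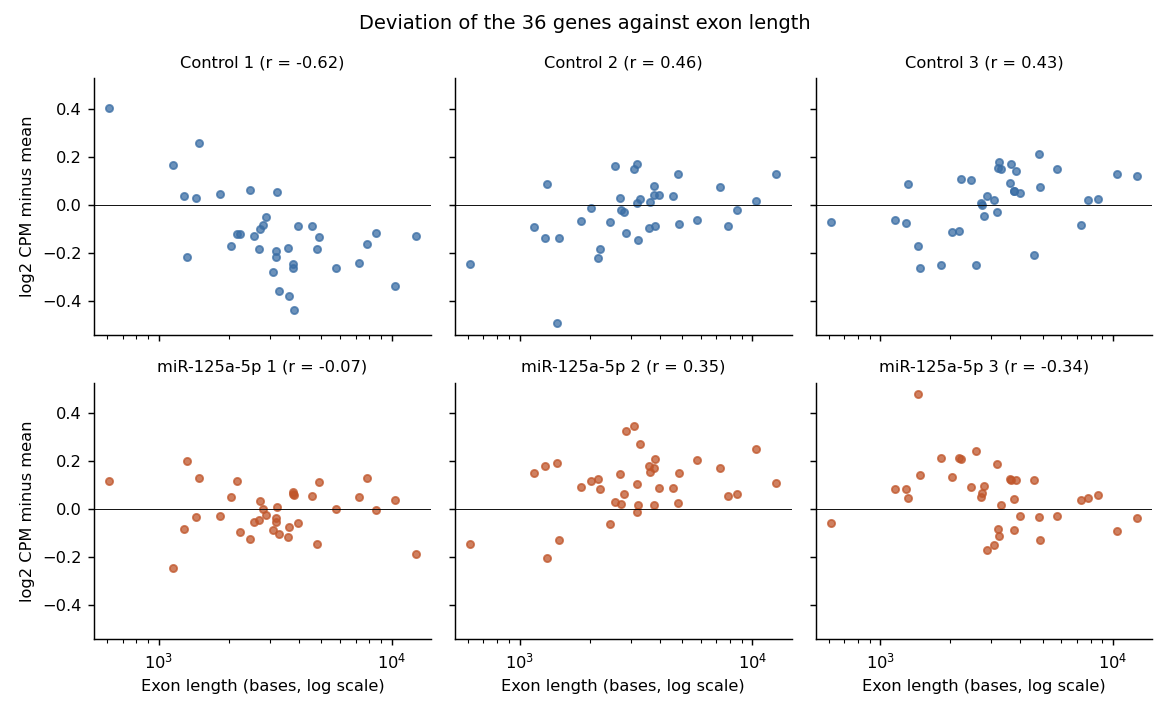
Log2 CPM minus the gene's mean over the 6 libraries (vertical axis) against exon length in bases (log axis) for the 36 genes, 1 panel per library. Points fall from left to right in control library 1 (r = -0.62) and rise in control libraries 2 and 3 (0.46 and 0.43).

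Other genes of G2 and mitosis, in 8 lists of 113 genes that share no gene with the 36, are given beside them. Of these, 110 were tested, 0 were called, 79 (71.8%) had a positive fold change, and the median was 0.06. They were measured in the same 6 libraries as the 36 genes, so they are not an independent comparison. In control library 1 the median log2 CPM relative to the gene's mean was below 0 in each of the 8 lists, from -0.30 to -0.05. Counts for these lists without control library 1 are not given. In 14 all treated libraries lay above all controls, against 5.31% of all genes, and in 2 below, against 5.90%. At the lowest adjusted p, RACGAP1, the partner of KIF23 and ECT2 at the central spindle, had 67.0, 78.6 and 86.6 CPM in control and 96.2, 102 and 97.4 CPM in treated libraries, with no overlap. Its log2 fold change was 0.35 (SE 0.11, adjusted p = 0.538), and it missed the threshold. KIF22 of the same list, a chromosome-arm kinesin, had a log2 fold change of 0.28.

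The transcription factors that act on these promoters had fold changes of both signs. Of the 15 genes of the DREAM complex, B-MYB and FOXM1 list, 12 had values above 0, and the median was 0.06. FOXM1 lay at 88.0 ± 4.21 against 85.4 ± 9.88 CPM (log2 fold change -0.04, adjusted p = 0.977). MYBL2, which encodes B-MYB, lay at 167 ± 16.8 against 145 ± 26.4 CPM (log2 fold change -0.20, adjusted p = 0.88), and LIN9, a core subunit of the complex, had a log2 fold change of 0.18. Of 9 tested genes of the G2 brake and CDK inhibitors, the fold change was positive for 7, and the median was 0.17. PKMYT1 and WEE1, the kinases that hold CDK1 inactive, had log2 fold changes of 0.35 and 0.18. CDC25A, their opponent at earlier phases, had a log2 fold change of 0.04. The CDK inhibitors CDKN1B, p27, and CDKN1A, p21, had log2 fold changes of 0.26 and -0.13, and CDKN1A was highest in control library 1, at 299 CPM. None of these genes was called.

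Of the anaphase-promoting complex and its regulators, 10 of 16 genes had a positive fold change, and 6 had all treated libraries above all controls, against 5.31% of all genes. UBE2S, which extends ubiquitin chains for the complex, had 12.5, 17.6 and 16.5 CPM in control and 21.1, 24.1 and 18.7 CPM in treated libraries (log2 fold change 0.46, adjusted p = 0.708), and ANAPC1, a scaffold subunit of the complex, had a log2 fold change of 0.20. In the kinetochore and checkpoint list 16 of 21 were positive. MAD2L1, the MAD2 protein that binds CDC20, had 18.9, 19.4 and 21.9 CPM in control and 24.4, 27.9 and 27.9 CPM in treated libraries (log2 fold change 0.41, adjusted p = 0.662). SPC25, a subunit of the NDC80 complex, had 70.6, 36.1 and 27.3 CPM in control and 33.7, 28.8 and 32.0 CPM in treated libraries, with control library 1 far above the other 5 libraries (log2 fold change -0.51). Cohesin and shugoshin had 8 of 12 positive (log2 fold change of PDS5A 0.13, SGO2 0.16), condensin 6 of 8 (NCAPH 0.19, SMC2 0.18), and centrosome and spindle genes 11 of 16 (CKAP2L 0.21, CKAP5 0.11, PLK4 0.08).

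Earlier phases of the cell cycle were covered by a further 2 lists. Of 35 tested genes of G1, S phase and DNA replication, 21 (60%) had a positive fold change, the median was 0.03, and 0 were called. In 4 all treated libraries lay above all controls and in 3 below, against the same 5.31% and 5.90% of all genes. The 2 with the lowest adjusted p had opposite signs. FEN1, the flap endonuclease of lagging-strand synthesis, had 111, 103 and 116 CPM in control and 84.3, 88.8 and 76.7 CPM in treated libraries (log2 fold change -0.40, SE 0.10, adjusted p = 0.373). RRM2, a subunit of ribonucleotide reductase, had 382, 327 and 337 CPM in control and 454, 417 and 415 CPM in treated libraries (log2 fold change 0.30, SE 0.09, adjusted p = 0.501). CDK6, a G1 kinase, had a log2 fold change of 0.21, and CDKN2D, an inhibitor of it, 0.59. The difference between the G2 and M phase genes and these genes was not tested.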

How the data were processed

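Total RNA of 6 THP-1 libraries was sequenced, 3 per group. The authors deposited 1 table of counts per gene, not normalized. The software listed (bcl2fastq, TopHat, edgeR) and the build hg19 are as per the submitters' processing notes. How reads were assigned to genes (tool, annotation, strand, reads with several matches) and all versions were not given in the sources used here, so overlapping or antisense genes cannot be told apart. Columns were assigned to libraries through the names in the labels, with 0 left over. Gene identifiers matched RefSeq for 26204 of 26347 rows (99.5%).

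The test was that of edgeR 4.0.16 (R 4.3.3), run as follows: filterByExpr (14731 of 21274 genes with any count), TMM scaling, glmQLFit and glmQLFTest without covariates, and Benjamini-Hochberg adjustment over all tested genes with a threshold of 0.05. The common biological coefficient of variation was 12.5%. CPM use TMM-scaled totals, and log2 CPM a prior count of 2. Alternatives were other scalings and filters, DESeq2 1.42.0, limma 3.58.1 (voom), a replicate block, leaving out each library, and removal of the length trend (loess span 0.5). The fits and the sequence search were checked on simulated data. Sequences and lengths came from GENCODE 29 and RefSeq, and no coordinate of the files was used.

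The 36 genes, the other lists and the tests were chosen with earlier results of these data known. Full values are given for the 8 genes with the smallest p, the 2 most negative, and the smallest p of each role, and other members with the values their description needs. Of each further list, the 2 genes with the smallest p are named, besides FOXM1, MYBL2, WEE1, CDC25A, CDKN1A and PLK4.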

Additional observations from a re-analysis of the deposited data

How the results depend on the processing

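Under every alternative run, 0 of the 36 genes were called, and the positive count ran from 24 (without control library 1) to 30. Leaving out 1 library at a time gave a median log2 fold change of 0.06 to 0.14. Over all genes, 4 were called, against 52 with no filter on low counts, 12 with DESeq2, 9 with the replicate block and 3 to 14 when 1 library was left out (14 without control library 3). The deviations of same-numbered libraries had correlations close to 0 (r = 0.06, 0.01 and -0.02). They were taken from group means of 3 libraries, so such values do not exclude a pairing by number. With the replicate block, the 36 genes had 28 positive fold changes and a median of 0.10. The sign of CDC25B reversed, to 0.00017 with DESeq2, 0.0034 with limma voom and 0.0078 with the length trend removed, and that of PTTG1 to 0.0093 with the length trend removed. That alternative was chosen after seeing the data, and the trend it removed is that over all genes, which was close to flat, so it does not test the length pattern of the 36 genes. Leaving out 1 library at a time reversed the sign of 12 genes, with ranges of -0.22 to 0.13 for CKS2, -0.068 to 0.14 for AURKB, -0.024 to 0.24 for BUB1, -0.028 to 0.14 for BUB1B, -0.082 to 0.11 for PTTG1, -0.022 to 0.23 for HMMR, -0.093 to 0.18 for DLGAP5, -0.0029 to 0.22 for CENPF, -0.048 to 0.027 for CDC25B, -0.024 to 0.25 for CKS1B, -0.15 to 0.013 for KIF2C and -0.056 to 0.20 for NEK2. The cause was not tested. Searching from 100 bases before the start gave TTTGAA in 19 genes in place of 20, and from 150 bases CCAAT in 26 as before. With 3 libraries a group the standard errors had a median of 0.11, about as large as the median fold change.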

Other observations

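A spacing between CCAAT matches was also counted in the promoters of the 30 genes that were searched. A pair of matches starting 31 to 35 bases apart, a range chosen after the positions were seen, was present in 6 of 30 genes (20%), against 2.58% of 11451 tested genes and 1.53% of 35116 windows. All 6 had a positive log2 fold change, with a median of 0.11. The 24 genes without such a pair had a median of 0.09 (16 positive), and all tested genes with it had 0.01. The range was set on these same promoters, so the shares are a description with no test.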
